A study of Homo sapiens with 2 samples.

Results

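The genes of the DNA-PK complex were read out in PAR-CLIP libraries that had been purified through one of its own subunits. The group consisted of 3 genes out of the 63494 annotated features, taken by their feature IDs. XRCC5 (CHM13_G0033574) encodes Ku80, XRCC6 (CHM13_G0037549) encodes Ku70 and PRKDC (CHM13_G0053684) encodes DNA-PKcs, the catalytic subunit. The choice of genes used no measured value.

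Ku70 and Ku80 form a ring-shaped heterodimer that loads onto the ends of broken DNA. The heterodimer recruits DNA-PKcs, a kinase of the PI-3 kinase-like family, and the assembled DNA-PK holds and processes the ends during non-homologous end joining (NHEJ). Ku can also bind structured RNA, and the study asked which RNAs it contacts in living cells.

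In PAR-CLIP a photoreactive nucleoside is built into cellular RNA, UV light links that RNA to the proteins it touches, and the RNA is then sequenced after purification of the protein. Both libraries came from HEK293T, an established line from human embryonic kidney transformed to make SV40 large T antigen. The SFB-Ku80 cells expressed a Ku80 cDNA with an SBP tag and tandem FLAG tags, and the SFB empty vector cells carried the tag vector without Ku80. Per the labels both lines expressed their construct stably, whereas the methods describe the Ku80 plasmid as made for transient transfection. Both received 0.1 mM 6-thioguanosine (6SG), 0.4 J/cm2 of 365 nm UV and purification over streptavidin resin followed by FLAG resin. Neither line is described as lacking an endogenous DNA-PK subunit, and whether either was a single clone is not given in the sources used here.

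The SFB-Ku80 cells gave 1 library, called the Ku80 library here, and the SFB empty vector cells gave 1, called the control library, so differences had no replicate check and none was tested. Intervals given here are 95% intervals for counting error only. They are too narrow even for that, since reads of a pair, multimapping reads and PCR copies are not independent. The control library held 29863974 read pairs and the Ku80 library 22173753. Of these, 20.3% and 6.51% mapped uniquely to a feature. Counts per feature from featureCounts, which include multimapping reads, summed to 19775629 and 17892815. The count tables carry IDs without gene names, so symbols other than those of the 3 genes come from a match of chromosome and genomic span to RefSeq genes, or from a supplementary list of names where it covers the ID.

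On the CHM13 v1.1 assembly, XRCC5 lay on chromosome 2 from 216592869 to 216691725 on the plus strand. Its annotated exons merged into 24 blocks with 5463 bases, or 5.53% of the 98857 bases of the gene. XRCC6 lay on chromosome 22 from 42100093 to 42143024, also on the plus strand, with 13 exon blocks and 3244 bases. PRKDC, by far the longest of the genes, lay on chromosome 8 from 48149356 to 48336426 on the minus strand, with 86 exon blocks and 15417 bases. The chromosomes were those of RefSeq on GRCh38.p14, and the spans differed from RefSeq by 1.97% for XRCC5, 0.433% for XRCC6 and 0.0241% for PRKDC. Chromosome and span were the checks made of their identity.

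The gene of the purified subunit stood apart from those of its partners. XRCC5 had 1118 counts in the control library and 43907 in the Ku80 library. XRCC6 had 2048 counts in the control library and 427 in the Ku80 library. PRKDC had 5511 and 1610. The Ku80 gene was therefore high in the library that carried the Ku80 construct, as the labels state, and both partner genes had fewer counts there.

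Uniquely mapped read pairs, which leave out multimapping reads, gave the same directions. XRCC5 had 548 unique pairs in the control library (95% exact Poisson interval 503 to 596) and 21594 in the Ku80 library (21307 to 21884). XRCC6 had 996 (935 to 1060) and 202 (175 to 232). PRKDC had 2476 (2379 to 2575) and 689 (639 to 742). These intervals are for raw pairs, and the libraries held 6062669 and 1443251 unique pairs on features in all. The median feature with at least 100 unique pairs over both libraries had a raw log2 ratio of -2.41. Fewer raw pairs in the Ku80 library were therefore common among features and not particular to XRCC6 and PRKDC.

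**Figure D1:**
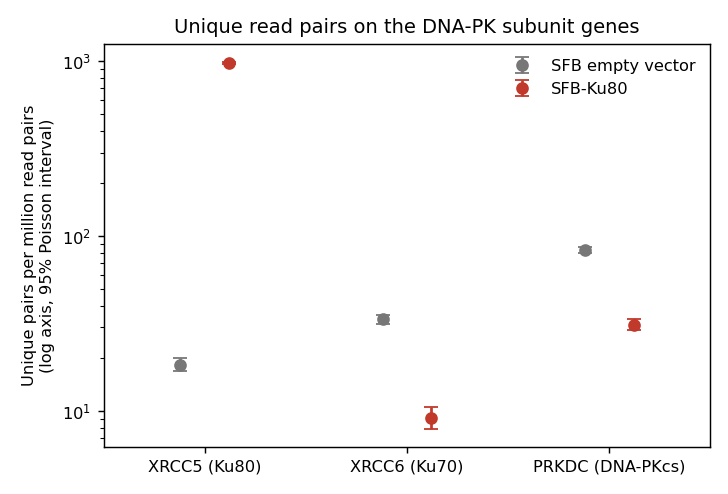
Unique read pairs on XRCC5, XRCC6 and PRKDC in RPM, scaled to all read pairs of the library (log axis), for SFB empty vector (gray) and SFB-Ku80 (red), with 95% exact Poisson intervals and 1 library per condition. XRCC5 moves from 18.3 to 974, while XRCC6 moves from 33.4 to 9.11 and PRKDC from 82.9 to 31.1.

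Divided by all read pairs of each library, the unique pairs on XRCC5 were 53.1 times as frequent in the Ku80 library as in the control library (exact conditional interval 48.8 to 57.9). The corresponding ratios were 0.273 for XRCC6 (0.234 to 0.318) and 0.375 for PRKDC (0.344 to 0.408). The median feature with at least 100 unique pairs over both libraries had a ratio of 0.254 on this scale. Per read pair, XRCC6 was thus about as much lower as the median feature, and PRKDC less so. All read pairs include those that did not map, 21.5% of the control library and 47.1% of the Ku80 library. The sizes of these ratios therefore depend on that share too.

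Ranks among all features showed how far XRCC5 moved. By counts XRCC5 ranked 2487 in the control library and 43 in the Ku80 library, and by unique pairs it ranked 1817 and 4. Only a chromosome 17 feature of 691 bases (CHM13_G0023426, 81329 unique pairs) and 2 features of the mitochondrial chromosome, with 74424 and 42631, had more unique pairs in the Ku80 library. XRCC5 alone took 1.50% of the unique pairs on features in that library and 0.00904% in the control library. XRCC6 ranked 786 and 747 by unique pairs, and PRKDC 199 and 136. By counts XRCC6 ranked 1107 and 2003, and PRKDC 301 and 369.

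The genes were compared with each other per kilobase of merged exon, because PRKDC offers far more sequence to reads than the Ku genes. In the control library the level in CPM per kilobase (counts scaled to the library total and the exon length) was 31.9 for XRCC6, 18.1 for PRKDC and 10.3 for XRCC5. The XRCC6 level was 1.77 times that of PRKDC (exact interval 1.68 to 1.86), and the XRCC5 level was 0.324 times that of XRCC6 (0.301 to 0.349). In the Ku80 library the level was 449 for XRCC5, 7.36 for XRCC6 and 5.84 for PRKDC. XRCC5 there had 61.1 times the level of XRCC6 (55.5 to 67.3) and 77.0 times that of PRKDC (73.2 to 80.9). Thus the order XRCC6, PRKDC, XRCC5 of the control purification became XRCC5, XRCC6, PRKDC.

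Ratios between the genes within a library do not depend on how the libraries are scaled. The XRCC5 to XRCC6 ratio was 188 times as high in the Ku80 library as in the control library (log-normal interval 167 to 212), and 194 times in unique pairs (163 to 231). The XRCC6 to PRKDC ratio was 0.714 times as high in the Ku80 library (0.634 to 0.803), with 0.729 in unique pairs (0.613 to 0.867). Relative to PRKDC, XRCC6 was therefore lower in the Ku80 library than in the control library under both ways of counting, with no replicate to set this against, and it was still above PRKDC per kilobase.

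To place the genes among all others, the log2 ratio of the Ku80 library to the control, with a pseudocount of 1, was taken relative to the median of the 17670 features that reached 100 counts in the sum of the libraries. On this scale, 26.8% of features were at least 2-fold higher and 25.3% at least 2-fold lower in the Ku80 library. Scaled by total counts instead, 5.52% were higher and 56.6% lower, and by TMM 15.7% and 37.8%, because these scalings place the median feature at -1.28 and -0.52. XRCC5 was at 6.72 (counting interval 6.63 to 6.80), or 105 times the median feature. XRCC6 was at -0.84 (-0.99 to -0.69) and PRKDC at -0.35 (-0.43 to -0.27). XRCC5 was past 2-fold and both partners were within it, although by total counts XRCC6 at -2.11 and PRKDC at -1.63 were past it, as was XRCC6 by TMM at -1.36 and by median-of-ratios factors at -1.33. Among the tested features, 29.1% lay below XRCC6 and 40.8% below PRKDC, so both sat inside the bulk of the distribution.

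In unique pairs the median was taken over 10217 features, of which 22.5% were at least 2-fold higher and 18.8% at least 2-fold lower. XRCC5 was at 7.70 (7.58 to 7.83), XRCC6 at 0.11 (-0.12 to 0.32) and PRKDC at 0.56 (0.44 to 0.68). The place of XRCC6 and PRKDC relative to the median feature therefore changed sign with the way of counting. Their raw ratios did not, at 0.208 by counts and 0.203 by unique pairs for XRCC6, and 0.292 and 0.278 for PRKDC. It was the median feature that moved, from a raw log2 ratio of -1.42 by counts to -2.41 by unique pairs.

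**Figure D2:**
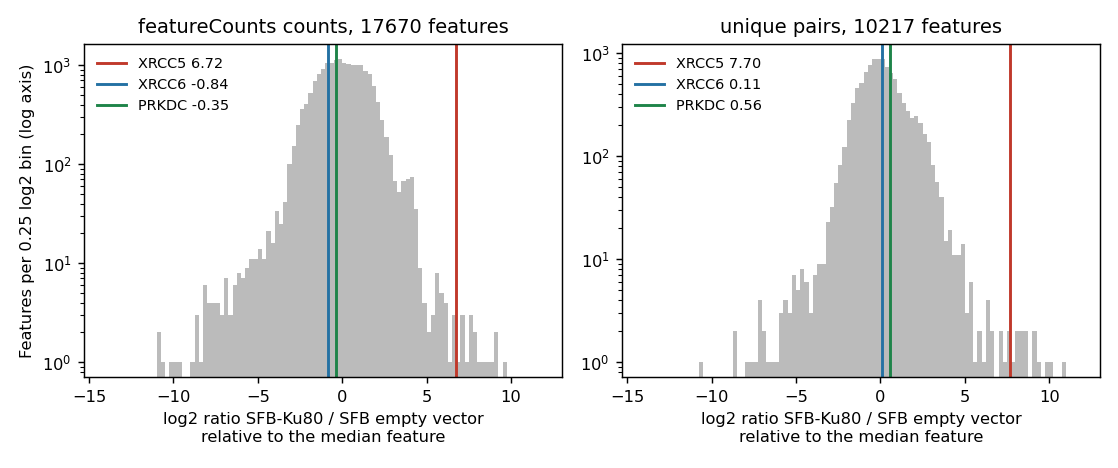
Distribution of the log2 ratio of SFB-Ku80 to SFB empty vector relative to the median feature, for featureCounts counts (left, 17670 features) and unique pairs (right, 10217 features), in bins of log2 ratio with a log axis for the number of features. XRCC5 (red) lies in the upper tail at 6.72 and 7.70, while XRCC6 (blue) and PRKDC (green) lie near the median in both panels.

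Few features had a higher ratio than XRCC5, 17 of 17670 by counts and 13 of 10217 by unique pairs. Several of those higher by counts had few counts in the control library, such as CHM13_G0001769 with 0 and CHM13_G0013824 with 1, against 1118 for XRCC5. Of the features with at least 10 exon blocks, a limit chosen after the values had been seen, 3 of 8549 were higher by counts and 1 of 6013 by unique pairs. By counts these were MLC1, MMEL1 and TAT, and TAT was also the one by unique pairs, all named after their values had been seen. MLC1 had 7852 counts but only 6 unique pairs in the Ku80 library, and MMEL1 8067 counts and 18 unique pairs. TAT, which encodes the liver enzyme tyrosine aminotransferase, had 828 unique pairs in the Ku80 library against 4 in the control library, far fewer than the 21594 of XRCC5.

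The count per unique pair showed how far each gene depended on multimapping reads, since a read pair placed once gives about as many counts as it has reads. XRCC5 had 2.04 counts per unique pair in the control library and 2.03 in the Ku80 library. XRCC6 had 2.06 and 2.11, and PRKDC 2.23 and 2.34. The median feature with at least 100 unique pairs had 2.24 in the control library and 2.51 in the Ku80 library, so none of the 3 genes lay above the median of its library. Only 8.55% of features in the control library and 19.1% in the Ku80 library had a lower value than XRCC5.

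Strand was resolved in the columns of unique pairs by strand. The second stranded column held 476 of the XRCC5 pairs in the control library and the first held 72. In the Ku80 library the columns held 18800 and 2795. The second column thus took 86.9% of the pairs (exact interval 83.7 to 89.6%) and 87.1% (86.6 to 87.5%), a difference of 0.196 percentage points. Both strand columns of XRCC5 were higher in the Ku80 library by a like factor, 39.5 for the second (36.1 to 43.3) and 38.8 for the first (30.7 to 49.8).

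XRCC6 had 823 pairs in the second column and 173 in the first in the control library, and 172 and 30 in the Ku80 library. Its second column share was 82.6% (80.1 to 84.9%) and 85.1% (79.5 to 89.8%). PRKDC had 2227 and 338 pairs in the control library and 609 and 105 in the Ku80 library, with shares of 86.8% (85.5 to 88.1%) and 85.3% (82.5 to 87.8%). For all 3 genes the intervals of both libraries overlapped. The median feature had a share of 82.8% in the control library and 76.8% in the Ku80 library, where the lower quartile was 47.7%. In the Ku80 library the strand share of the genes was thus above the median feature, and this held for each of them.

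**Figure D3:**
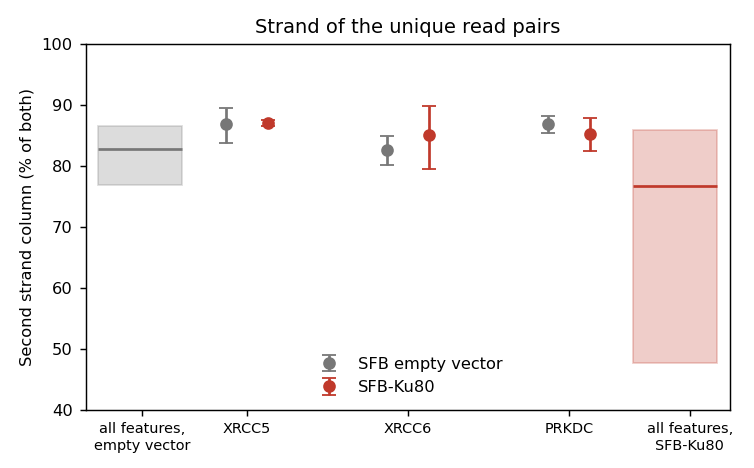
Share of the second stranded column in the unique pairs of both strand columns, in percent, for XRCC5, XRCC6 and PRKDC with 95% exact binomial intervals, SFB empty vector in gray and SFB-Ku80 in red. The shaded boxes at the sides span the quartiles of all features with at least 100 unique pairs and the line is their median. The 6 points lie between 82.6 and 87.1%, and the box of SFB-Ku80 reaches down to 47.7%.

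For XRCC5 and XRCC6 the strand columns added up to the unstranded count within 1 pair. For PRKDC they exceeded it by 89 pairs in the control library and 25 in the Ku80 library. PRKDC was the only one of the genes whose exons shared bases with another feature. CHM13_G0053686, on the opposite strand, shared 158 bases with PRKDC exons and had 23 counts in the control library and 5 in the Ku80 library. Reads on shared bases were left unassigned in the unstranded counts, so the counts of PRKDC leave out reads that fall there.

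The neighborhood of each gene showed whether its level extended beyond its own exons. Within XRCC5 lay 2 features on the opposite strand, neither of which shared a base with its exons. CHM13_G0033575, of 470 bases, had 9 counts in the control library and 4 in the Ku80 library, and CHM13_G0033576, of 1137 bases, had 11 and 0. Because featureCounts ignored strand, intronic reads of XRCC5 would have been counted in these windows. The raw counts there were not higher in the Ku80 library, but they were too few for a ratio. The windows also cover only a small part of the introns, so the level of XRCC5 introns was not tested. The 0 allows up to 3 counts.

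The 5 nearest features on each side of XRCC5 reached out to 237 kb and together had 556 counts in the control library and 228 in the Ku80 library, a raw ratio of 0.410 against 39.3 for XRCC5 itself. The highest of them in the Ku80 library had 68 counts. This was TMEM169, a membrane protein gene that ends 4.68 kb upstream, with 53 counts in the control library and a log2 ratio of 1.78 relative to the median feature. MARCHF4, a ubiquitin ligase gene on the downstream side, had 59 and 26. Of the 4 neighbors with at least 100 counts, 1 was at least 2-fold higher and 1, MREG at -1.25, at least 2-fold lower, which is near the 26.8% and 25.3% of all features. In unique pairs MREG, with 53 and 14 and so below the minimum, was at 0.56. TMEM169, with 17 and 7 unique pairs and also below the minimum, was at 1.24.

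**Figure D4:**
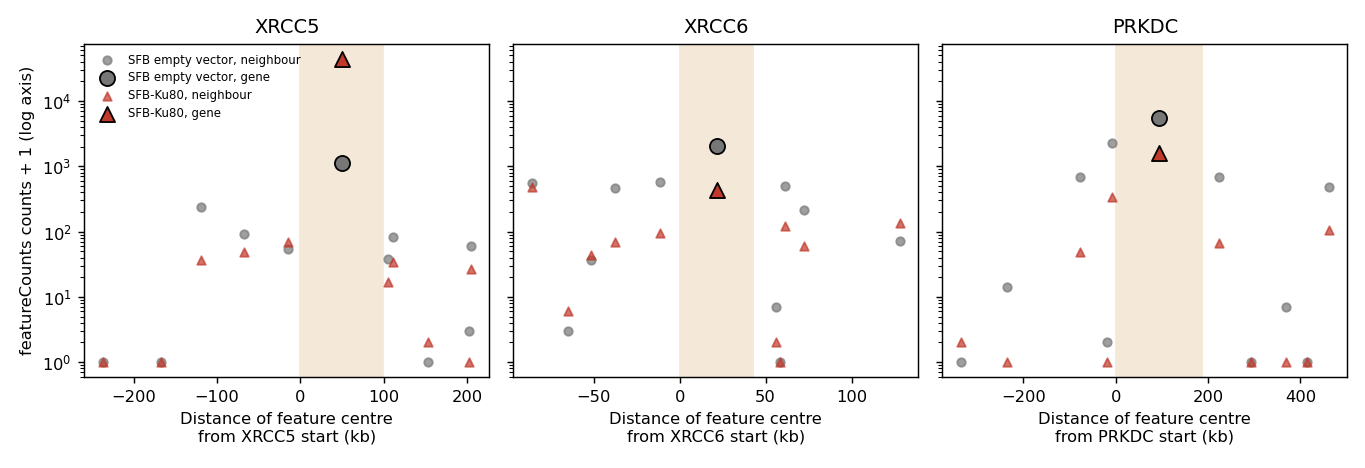
Counts plus 1 (log axis) of XRCC5, XRCC6 and PRKDC (large symbols) and of the 5 nearest features on each side (small symbols), for SFB empty vector (gray circles) and SFB-Ku80 (red triangles), against the distance of each feature's center from the start of the gene in kb, with the gene shaded. The red triangle of XRCC5 at 43907 counts stands far above its neighbors, none of which exceeds 68 counts in SFB-Ku80.

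Around XRCC6 the 10 neighbors had 2418 counts in the control library and 1009 in the Ku80 library, a raw ratio of 0.417 against 0.208 for XRCC6. DESI1, which starts 120 bases from XRCC6 on the opposite strand, had 576 and 93 counts and a log2 ratio of -1.20. SNU13, which encodes a protein of the U4 snRNP and of box C/D snoRNPs, lay 9.89 kb downstream with 501 and 122 counts and -0.61. Among the 6 neighbors with at least 100 counts the values ran from -1.31 for PMM1 to 2.35 for MEI1, so XRCC6 at -0.84 lay within the range of its own locus.

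Next to PRKDC, MCM4 starts 7 bases away on the opposite strand. MCM4 encodes a subunit of the replicative helicase and had 2291 counts in the control library and 341 in the Ku80 library, a log2 ratio of -1.32, while PRKDC was at -0.35. The 10 neighbors of PRKDC had 4169 and 559 counts, a raw ratio of 0.134 against 0.292 for PRKDC. The 4 of them with at least 100 counts ran from -2.40 to -0.79, and PRKDC lay above all 4. CEBPD, a transcription factor gene, was among them with 696 and 66 counts and -1.96.

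Other genes of end joining gave a reference for the subunits. Of the 12 listed NHEJ factors, 8 could be matched to a feature. In the control library their levels ran from 1.06 to 12.7 CPM per kilobase, so XRCC6 at 31.9 and PRKDC at 18.1 were above all 8 and XRCC5 at 10.3 was within their range. In the Ku80 library the 8 ran from 0.207 to 9.83, and XRCC5 at 449 was above all of them.

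Among the 8, 1 was at least 2-fold higher, 2 were at least 2-fold lower and the median was -0.39, beside a median of 0 and shares of 26.8% and 25.3% over all tested features. Scaled by total counts, 0 were higher and 5 lower, where 56.6% of all features were lower, and by TMM 1 and 4, where 37.8% were. The higher one was CYREN, which encodes a small regulator of Ku in end joining, with 524 counts in the control library and 903 in the Ku80 library and a log2 ratio of 2.21. In unique pairs CYREN had 158 and 210, or 2.81 relative to the median feature. The lower ones were LIG4, the ligase that seals the ends, with 131 and 17 counts (-1.45), and POLL, a gap-filling polymerase, with 981 and 145 (-1.33). In unique pairs none of the 4 factors with enough pairs was at least 2-fold lower, beside 18.8% of all features. POLL was there at -0.85, and LIG4, with 61 and 5 pairs, was below the minimum. POLM, another gap-filling polymerase and the factor with the most counts, had 1190 and 249 (-0.83). XRCC4, the partner of LIG4, had 114 and 62 counts (0.55), and DCLRE1C, the nuclease Artemis, had 327 and 125 (0.04).

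The kinases related to DNA-PKcs were also compared. Of 5 such genes 4 were matched, and none was past 2-fold in either direction, beside 26.8% of all features higher and 25.3% lower. By total counts 4 were at least 2-fold lower, beside 56.6% of all features, and by TMM 3, beside 37.8%. ATM, the kinase that responds to DNA breaks, had 1400 counts in the control library and 475 in the Ku80 library (-0.14). SMG1, a kinase of nonsense-mediated decay, had 3129 and 656 (-0.83), and MTOR, the growth-regulating kinase, had 2142 and 402 (-0.99). ATR, which responds to stalled replication, had 1316 and 274 (-0.84). PRKDC at -0.35 lay between ATM and the other kinases. Its level in the control library, 18.1 CPM per kilobase, was above the 2.44 to 8.87 of the 4 related kinases, and in the Ku80 library its 5.84 was above their 0.562 to 1.84.

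Of 10 genes of break sensing and signaling, 7 were matched. At least 2-fold lower were 3 of them and at least 2-fold higher 0, with a median of -0.64, beside 25.3% of all features lower and 26.8% higher. By total counts 7 were lower, beside 56.6% of all features, and by TMM 4, beside 37.8%. PARP1, the poly(ADP-ribose) polymerase that senses DNA breaks, had 1894 and 346 counts (-1.03). MDC1, a scaffold at phosphorylated chromatin, had 1321 and 316 (-0.64), and MAD2L2, a shieldin subunit, had 910 and 324 (-0.07). Beside PARP1, those past 2-fold were TP53BP1, which favors end joining at breaks, at -1.37 and RNF8, a ubiquitin ligase, at -1.22. In unique pairs none of the 6 with enough pairs was past 2-fold, beside 22.5% of all features higher and 18.8% lower. PARP1 was there at -0.05.

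The last list held genes of nucleolar proteins. Of 9 listed, 8 were matched, 5 were at least 2-fold lower and 0 at least 2-fold higher, with a median of -1.44, beside 25.3% of all features lower and 26.8% higher. By total counts 8 were lower, beside 56.6% of all features, and by TMM 7, beside 37.8%. NPM1, an abundant protein of the granular component, had 10240 counts in the control library and 668 in the Ku80 library (-2.51). FBL, the methyltransferase of the dense fibrillar component, had 2372 and 146 (-2.59). NOP56, a core protein of box C/D snoRNPs, had 6151 and 483 (-2.25). TCOF1, the treacle protein of ribosomal gene transcription, had 3315 and 451 (-1.45). In unique pairs 3 of the 8 were at least 2-fold lower, FBL, NPM1 and NOP56, beside 18.8% of all features.

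**Figure D5:**
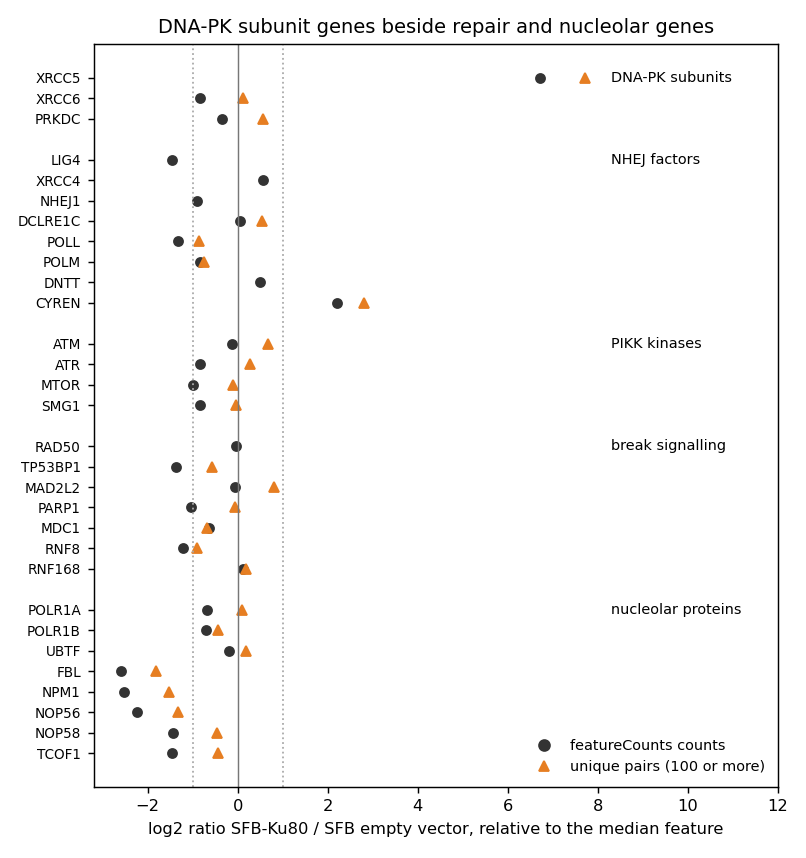
Log2 ratio of SFB-Ku80 to SFB empty vector relative to the median feature for the DNA-PK subunit genes and the matched genes of the lists, by counts (black circles) and, for genes with at least 100 unique pairs over both libraries, by unique pairs (orange triangles). Dotted lines mark 2-fold. XRCC5 lies at 6.72 and 7.70, and the next highest gene shown is CYREN at 2.21 and 2.81.

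The features most like each gene were taken by their distance in log2 unique pairs over the 2 libraries. XRCC6 had close matches, with ZNF664 (1010 and 201 unique pairs), GNAS (1003 and 205) and CARS1 (1003 and 193) at distances of 0.02 to 0.07. The nearest to PRKDC were TNPO2 (2558 and 741), HIVEP3 (2341 and 628) and FAM131C (2018 and 710), at 0.11 to 0.30. XRCC5 had no close match. Of its 3 nearest features, at 1.80 to 2.06, only KLHDC7B carried a name, with 1921 and 10942 unique pairs.

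Markers bore on what the libraries held. All 5 markers of HEK293T were detected, from 108 to 1113 counts in the control library and from 33 to 272 in the Ku80 library, with VIM the highest in the control library. Together they had 1897 and 729 counts, of which VIM had 1113 and 188. Relative to the median feature 2 were at least 2-fold higher and 2 at least 2-fold lower, beside 26.8% and 25.3% of all features. The higher ones were PAX2 with 223 and 272 counts (1.71) and EMX2 with 108 and 182 (2.17). The lower ones were VIM (-1.14) and NEFM (-1.93). By total counts 0 were higher and 2 lower, beside 5.52% and 56.6% of all features. In unique pairs, of the 3 with enough pairs, PAX2 was at 2.33, VIM at -0.55 and NEFM at -1.03. EMX2, with 19 and 4 pairs, was below the minimum. Of 5 markers of cell types that the line should lack, 4 were matched and none was at 0. These 4 together had 57834 and 16651 counts. PTPRC, of blood cells, had 113 and 91 counts, COL1A1, of fibroblasts, 1104 and 78, and KRT5, of keratinocytes, 2421 and 1320. KRT5 was thus above every HEK293T marker in both libraries. MYH7, of heart muscle, had 54196 and 15162 counts, and 9947 and 2842 unique pairs. The part of such counts in the results for the DNA-PK genes was not tested.

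Counts were made per gene and not per exon. The RNA of the Ku80 cDNA and that of the endogenous XRCC5 gene therefore cannot be told apart in the Ku80 library, nor can a higher amount of XRCC5 RNA in the cells be told apart from more of it in the purification.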

How the data were processed

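The authors aligned read pairs with STAR 2.7.6a to the CHM13 telomere-to-telomere assembly and deposited counts per feature made with featureCounts 2.0.2 (per the file headers: CHM13 draft v1.1 annotation, both ends mapped, minimum fragment length 18, multimapping reads counted, strand not used). They also deposited STAR's counts of uniquely mapped pairs, unstranded and for each strand. STAR's totals that name no gene did not enter the gene counts. Ambiguous pairs made up 5.76% of the control library and 2.66% of the Ku80 library, and pairs outside all features 27.3% and 16.7%. Multimapping pairs made up 25.1% and 27.0%, and unmapped pairs 21.5% and 47.1%. The rDNA bins were not used here.

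From these counts, levels, log2 ratios (pseudocount 1, at least 100 counts over both libraries, relative to the median feature), strand shares and exact intervals were computed with Python 3.11.15 and scipy 1.17.1. Alternatives were scaling by total counts, by TMM (edgeR 4.0.16) or by median-of-ratios factors, and other filters. The computation was tested on simulated data. The related genes, lists and rules were chosen with earlier results of these data known. Genes named are the DNA-PK genes, their 5 nearest features on each side and overlapping features (the extremes and the closest), listed genes with the most counts, and the 3 nearest features by unique pairs. Further genes past 2-fold, and some list members with a role next to the subunits, were named after their values had been seen.

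Symbols were matched to RefSeq (GRCh38.p14) by chromosome, strand where known and genomic span (within 0.5%, or 5% between accepted matches), with at least 5 of the 6 neighboring matches nearby. On chromosome 1 the supplementary table of the study gave names directly. In all 18945 of 63494 features received a symbol. Where this table allowed a check, 630 of 647 span matches had the same name. Neighboring matches also follow gene order, so a name could be wrong where order differs between the assemblies.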

Additional observations from a re-analysis of the deposited data

How the results depend on the processing

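No paired analysis was possible because there was 1 library for either condition, and leaving out a library leaves no comparison. XRCC5 was above 0 under all 10 alternatives, XRCC6 under 2 and PRKDC under 4, and for values that moved, the cause was not tested. In the order XRCC5, XRCC6, PRKDC, the log2 ratios were 7.70, 0.11 and 0.56 in unique pairs, 7.59, -0.16 and 0.65 in the first strand column, 7.94, 0.39 and 0.77 in the second, 6.23, -1.32 and -0.84 with the median over features with at least 1 count, and 7.37, -0.18 and 0.30 with at least 1000 counts. They were 5.44, -2.11 and -1.63 by total counts, 6.19, -1.36 and -0.88 by TMM, and 6.22, -1.33 and -0.85 by median-of-ratios factors. XRCC6 was thus at least 2-fold lower with the lowest filter and under these 3 scalings, and PRKDC by total counts only. Against the median of features with at least 10 exon blocks, a setting added after the values had been seen, they were 6.85, -0.71 and -0.22. With a pseudocount of 10 they were 6.62, -0.90 and -0.43.

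Features at least 2-fold higher numbered 4742 as reported, 2295 in unique pairs, 13545 and 1204 with at least 1 and at least 1000 counts, 975 by total counts and 2782 by TMM. Those at least 2-fold lower numbered 4477 as reported, then 1921, 12260, 1010, 10001 and 6682. By total counts 5.52% of features were higher and 56.6% lower, and by TMM 15.7% and 37.8%. Total counts placed the median feature at -1.28 and TMM at -0.52. The features inside the XRCC5 introns had at most 11 counts, too few for a ratio.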
